A study of Mus musculus with 6 samples.

Results

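The osteoblast lineage transcription factors are the regulators Runx2, Sp7, Dlx3, Dlx5, Dlx6, Msx1, Msx2, Twist1 and Twist2, chosen by name from what is known of bone formation and found on the arrays through the RefSeq transcript of each feature. Of the 9 genes, 8 had a feature, with 2 features for Dlx5 and 1 for each of the others, so 9 of the 42586 features on each array are described. No feature was matched to Dlx6, and it is not analysed here. Transcripts were measured on 6 single-colour NimbleGen arrays of MC3T3-E1, a line of mouse calvarial cells that can become mineralizing osteoblasts. Cells on the 3 differentiated arrays had spent 15 days in medium with ascorbic acid (50 µg/mL) and glycerol-2-phosphate (10 mM). Cells on the 3 undifferentiated arrays had grown without these additions. All 6 cultures, at passages 5 to 12, were given 1,25(OH)2D3, active vitamin D hormone, at 100 nM for 24 h. Vehicle-treated cells are not analysed here, so no hormone response can be read from the values.

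Runx2, a runt domain factor, commits mesenchymal cells to the osteoblast lineage, and the zinc finger factor Sp7, known as osterix, acts after it and is required for osteoblasts to form. The homeobox genes Dlx3, Dlx5, Msx1 and Msx2 pattern the craniofacial skeleton and are induced by bone morphogenetic proteins (BMPs); Dlx proteins mostly activate and Msx proteins mostly repress shared target sites. Twist1 and Twist2 are basic helix-loop-helix (bHLH) proteins that hold back osteoblast differentiation by binding the DNA-binding domain of Runx2, as described in mice.

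Of the 8 measured genes, Sp7 and Dlx3 were higher and Msx2 and Twist1 lower in differentiated cells, while Runx2, Dlx5, Msx1 and Twist2 did not pass the test. In bulk RNA fewer cells of a type and less RNA per cell cannot be told apart. Differences were fitted with limma on the log2 intensity of all features and called at a Benjamini-Hochberg adjusted p under 0.05 over all features. Among all features 19.6% were called, 7.97% higher and 11.7% lower in differentiated cells, against 4 of the 8 genes here. The genes were chosen with earlier results of these data known, so this comparison is not independent evidence. The 3 arrays of each group did not overlap for the same 4 genes, and they did not overlap for 40.1% of all features. The median difference over the 9 features was 0.027 on the log2 scale, against 0.066 over all features. All 9 features read above the array's random-probe control on all 6 arrays, with Dlx3 in undifferentiated cells the nearest to it, at 2.39 times the control on its closest array.

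**Figure D1:**
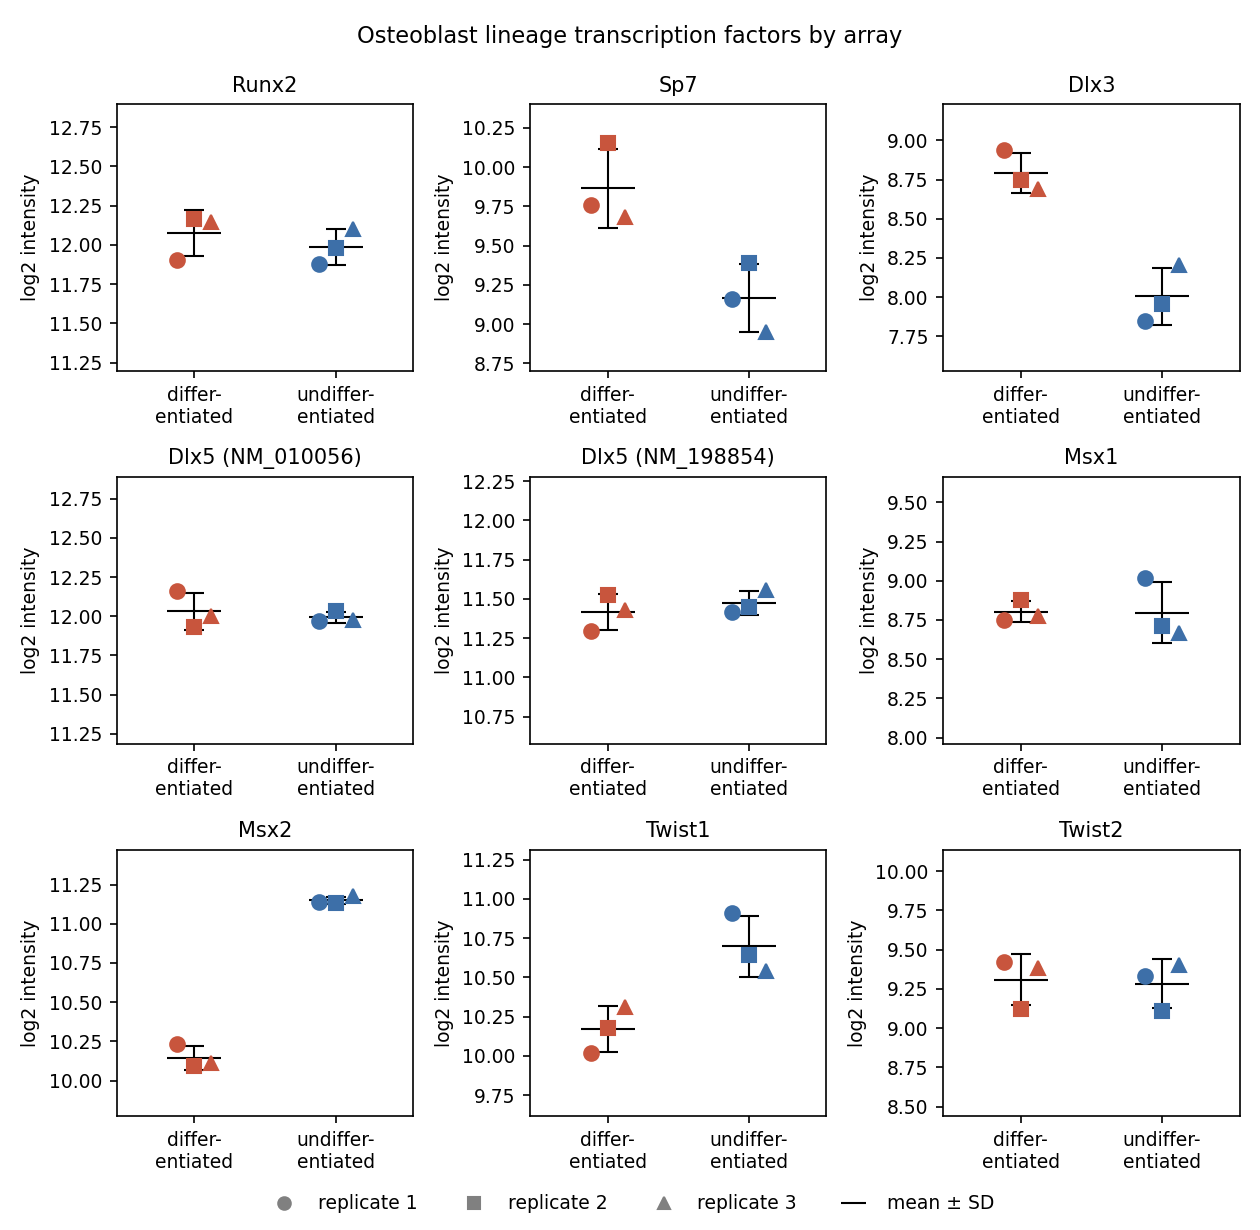
Log2 intensity of each feature (vertical axis, each panel spanning the same number of log2 units) on the 3 differentiated arrays (red, left) and the 3 undifferentiated arrays (blue, right). Circles, squares and triangles are replicates 1, 2 and 3, and lines with bars are the mean ± SD of 3 arrays. The groups are apart for Sp7, Dlx3, Msx2 and Twist1 and overlap in the other 5 panels.

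Undifferentiated replicate 3 lay nearer the differentiated arrays than the other 2 of its group did, with Pearson's r across features of 0.968 to 0.978 with them, against 0.958 to 0.974 for replicates 1 and 2. Without it, 43.9% of all features were called (23.2% higher, 20.7% lower), and so were the same 4 genes in the same directions. The array numbers of undifferentiated replicates 1 and 2 begin differently from those of the other 4 arrays. With that start as a covariate, which compares differentiated cells with undifferentiated replicate 3, 14.6% of features were called (6.33% higher, 8.27% lower). Of the 4 genes, Sp7, Dlx3 and Msx2 were still called and Twist1 was not. The scan names carry 1 date for each group, so imaging date and differentiation cannot be told apart. The labels give biological triplicates, without saying what separated the cultures.

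Of the factors that commit cells to the lineage, Runx2 did not pass the test. The transcript of Runx2 had an intensity of 3839.8, 4599.8 and 4542 in differentiated replicates 1, 2 and 3, against 3761, 4033 and 4399 in undifferentiated replicates 1, 2 and 3. The 2 groups overlapped, and the lowest array of each was replicate 1. The log2 difference was 0.089 ± 0.14 (SE), with a 95% interval of -0.21 to 0.39 (adjusted p = 0.658). The single Runx2 feature carries the identifier NM_009820, while RefSeq lists several Runx2 transcripts, and the values do not separate them.

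Sp7 rose in differentiated cells. Its intensity was 866, 1139 and 821 in differentiated replicates 1, 2 and 3, against 572, 669.7 and 495 in undifferentiated replicates 1, 2 and 3. The lowest differentiated array was above the highest undifferentiated array, with replicate 2 the brightest of each group. Mean log2 values were 9.86 ± 0.25 in differentiated cells and 9.17 ± 0.22 in undifferentiated cells (SD, n = 3 each), a 1.62-fold difference (log2 0.70 ± 0.17 SE, adjusted p = 0.0169 in limma). The call was lost in 2 of 17 alternative settings. Among the 17 is the deposited series table, which holds the main values and so could not differ. The difference was 0.75 (adjusted p = 0.0536) when differentiated replicate 1 was left out and 0.55 (adjusted p = 0.0673) when differentiated replicate 2 was.

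The log2 ratio of Sp7 to Runx2 within an array removes what is shared by all features of that array. It was -2.15, -2.01 and -2.47 in differentiated replicates 1, 2 and 3, against -2.72, -2.59 and -3.15 in undifferentiated replicates 1, 2 and 3. The groups did not overlap, and the ratio was 0.61 higher in differentiated cells on the log2 scale. It was 0.45 higher after quantile normalization and 0.39 higher after cyclic loess, and under both the groups overlapped (exact p = 0.3 each). Across the lineage factors, 5 such ratios of related genes were tested by an exact 2-sided permutation over arrays, where 3 against 3 arrays cannot give a p below 0.1. On the deposited scale all 5 reached that value, with an adjusted p of 0.1 over the 5, so none passed a threshold of 0.05.

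A promoter window of Runx2 is shown because the runt domain proteins are known to act on their own gene in mice. It was matched by gene name, and whether the measured transcript starts there was not examined. The window runs from 250 bases before to 50 bases after the start site that RefSeq gives, read 5′ to 3′ on the gene's strand. Capitals mark letters searched for on both strands: the Runx motif TGTGGT, the E-box CANNTG that bHLH proteins bind, the GC box GGGCGG that Sp proteins bind, and the homeobox motif TAATTG with its variant that ends in the letter A, TAATTA.

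Runx2 (GRCm38, chr17:44814578-44814877, minus strand): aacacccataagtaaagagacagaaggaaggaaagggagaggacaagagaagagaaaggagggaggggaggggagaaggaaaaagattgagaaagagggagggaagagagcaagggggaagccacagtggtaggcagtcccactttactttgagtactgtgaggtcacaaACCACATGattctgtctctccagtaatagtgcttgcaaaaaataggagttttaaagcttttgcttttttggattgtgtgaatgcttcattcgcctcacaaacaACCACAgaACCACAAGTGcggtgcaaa

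This window held 3 Runx motifs, beginning at bases -80, 24 and 32 from the start site, where the base after -1 is 1. Of 32817 RefSeq promoter windows of the same length, 16.8% held at least 1. It also held 2 E-boxes, each overlapping a Runx motif, and an E-box was present in 72.3% of windows. Its GC content was 45.3%, against a median of 52.7%. A match is a description of letters and no sign of binding. RefSeq promoter windows were found for Runx2, Msx1, Msx2, Twist1 and Twist2.

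Of the distal-less genes, Dlx3 rose and Dlx5 did not pass. Dlx3 is known for its part in tooth, hair and bone formation and can activate the osteocalcin gene. Its intensity was 490.1, 429 and 413 in differentiated replicates 1, 2 and 3, against 231, 249 and 296 in undifferentiated replicates 1, 2 and 3. Every differentiated array was above every undifferentiated array, and undifferentiated replicate 3 was the nearest to the differentiated group. Mean log2 values were 8.79 ± 0.13 in differentiated cells and 8.01 ± 0.18 in undifferentiated cells (SD, n = 3 each), a 1.72-fold difference (log2 0.79 ± 0.14 SE, adjusted p = 0.00421 in limma). Dlx3 passed in all 17 alternative settings, with adjusted p from 1.93e-05 to 0.0313 and a difference of 0.58 to 0.89.

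Dlx5, an activator of Runx2 and Sp7 downstream of BMPs, is carried by features for a pair of transcripts. The feature NM_010056 had an intensity of 4584, 3910.2 and 4095 in differentiated replicates 1, 2 and 3, against 4016, 4189 and 4024 in undifferentiated replicates 1, 2 and 3. The feature NM_198854 had 2517, 2945 and 2761 in differentiated replicates 1, 2 and 3, against 2728, 2799 and 3013 in undifferentiated replicates 1, 2 and 3. Both features overlapped between groups, and on differentiated replicate 1 the first was at its highest and the second at its lowest. Their log2 differences were 0.039 (95% interval -0.24 to 0.32, adjusted p = 0.844) and -0.056 (95% interval -0.34 to 0.23, adjusted p = 0.774). Neither passed in any alternative setting run.

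The ratio of Dlx3 to Dlx5 was higher in differentiated cells by 0.75 on the log2 scale with the first Dlx5 feature and by 0.84 with the second. After cyclic loess it was higher by 0.47 with the first and 0.58 with the second. With the first, the ratio was -3.23, -3.19 and -3.31 in differentiated replicates 1, 2 and 3, against -4.12, -4.07 and -3.77 in undifferentiated replicates 1, 2 and 3. The groups did not overlap with either feature (exact p = 0.1 each). Both ratios use the same Dlx3 values and are not separate evidence.

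Among the muscle segment homeobox genes, Msx2 fell and Msx1 did not pass. Msx2, whose gain of function in humans closes the skull sutures early, is known in mouse cells as a repressor of the osteocalcin gene and as a factor of proliferating osteoprogenitors. Its intensity was 1201, 1091 and 1106 in differentiated replicates 1, 2 and 3, against 2252, 2245 and 2316 in undifferentiated replicates 1, 2 and 3. The arrays of each group lay close together and the groups were far apart. Mean log2 values were 10.14 ± 0.08 in differentiated cells and 11.15 ± 0.02 in undifferentiated cells (SD, n = 3 each), a 2.01-fold difference (log2 -1.00 ± 0.12 SE, adjusted p = 0.000386 in limma). The difference was -1.06 to -0.95 over 17 alternative settings, and it passed in all of them. It had the largest fold of the 9 features.

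Msx1, the paralogue that acts with Msx2 in skull and tooth formation, had an intensity of 431, 470.2 and 439 in differentiated replicates 1, 2 and 3, against 518, 418 and 406 in undifferentiated replicates 1, 2 and 3. All 3 differentiated arrays lay within the range of the undifferentiated arrays. The log2 difference was 0.0047 (95% interval -0.30 to 0.31, adjusted p = 0.984).

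The log2 ratio of Msx2 to Msx1 was 1.48, 1.21 and 1.33 in differentiated replicates 1, 2 and 3, against 2.12, 2.42 and 2.51 in undifferentiated replicates 1, 2 and 3. Differentiated minus undifferentiated, it changed by -1.01 without overlap (exact p = 0.1, the smallest possible). The promoters of the pair are set side by side because Msx2 passed the test and Msx1 did not, with capitals as above.

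Msx2 (GRCm38, chr13:53472731-53473030, minus strand): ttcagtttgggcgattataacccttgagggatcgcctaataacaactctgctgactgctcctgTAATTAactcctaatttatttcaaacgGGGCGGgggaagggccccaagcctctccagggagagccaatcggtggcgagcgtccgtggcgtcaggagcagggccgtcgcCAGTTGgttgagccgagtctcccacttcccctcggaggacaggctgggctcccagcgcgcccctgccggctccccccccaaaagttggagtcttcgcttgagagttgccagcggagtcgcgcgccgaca
Msx1 (GRCm38, chr5:37824536-37824835, minus strand): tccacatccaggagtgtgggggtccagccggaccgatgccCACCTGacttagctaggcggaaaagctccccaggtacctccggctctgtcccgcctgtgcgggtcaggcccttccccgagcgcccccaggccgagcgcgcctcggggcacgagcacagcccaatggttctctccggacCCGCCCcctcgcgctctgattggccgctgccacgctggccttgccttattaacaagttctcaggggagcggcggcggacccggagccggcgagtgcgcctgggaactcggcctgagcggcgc

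Both windows are GC-rich, at 61% for Msx2 and 70% for Msx1. Each held 1 GC box, present in 35.6% of all windows, and 1 E-box. The Msx2 window held the homeobox motif TAATTA at base -187, which 5.3% of windows hold, and the Msx1 window held neither homeobox motif. Receptor motifs, letters that the vitamin D receptor can bind, were searched for on both strands in all 5 windows and are not in capitals. The receptor motif GGGTCA began at base -150 in the Msx1 window and is held by 13.7% of windows. The receptor motif AGGTCA began at base -89 in the Runx2 window and is held by 16.3% of windows. The receptor motif GGTTCA, held by 10.4% of windows, was not found in these 5, and the other receptor motifs had no further match in them.

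Of the Twist genes, Twist1 fell and Twist2 did not pass. Twist1, whose loss of 1 copy in humans and mice fuses skull sutures early, had an intensity of 1037, 1161 and 1270.0 in differentiated replicates 1, 2 and 3, against 1927, 1598 and 1488 in undifferentiated replicates 1, 2 and 3. The highest differentiated array lay below the lowest undifferentiated array, and undifferentiated replicate 1 was the farthest from the differentiated group. Mean log2 values were 10.17 ± 0.15 in differentiated cells and 10.70 ± 0.19 in undifferentiated cells (SD, n = 3 each), a 1.44-fold difference (log2 -0.53 ± 0.15 SE, adjusted p = 0.0302 in limma).

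The Twist1 call rested on all but 1 of the arrays. With 1 differentiated array left out, the adjusted p was 0.13 (replicate 1), 0.0808 (replicate 2) or 0.0634 (replicate 3). With undifferentiated replicate 1 or 2 left out, it was 0.0872 or 0.0864, and the difference over these 5 settings was -0.60 to -0.42. Without undifferentiated replicate 3 the difference was -0.61 (adjusted p = 0.00416). With the array-number term in the fit it was -0.37 (adjusted p = 0.199). Twist1 stayed lower in differentiated cells in all 17 settings and passed in 11.

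Twist2, also known as Dermo1, had an intensity of 686, 558 and 666 in differentiated replicates 1, 2 and 3, against 646, 551 and 677 in undifferentiated replicates 1, 2 and 3. The groups overlapped over almost their whole range, and replicate 2 was the dimmest of each. The log2 difference was 0.027 (95% interval -0.29 to 0.34, adjusted p = 0.907). The log2 ratio of Twist1 to Twist2 was 0.60, 1.06 and 0.93 in differentiated replicates 1, 2 and 3, against 1.58, 1.54 and 1.14 in undifferentiated replicates 1, 2 and 3. Differentiated minus undifferentiated, it changed by -0.56 without overlap (exact p = 0.1). Differentiated replicate 2 and undifferentiated replicate 3 came closest to each other.

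Twist1 (GRCm38, chr12:33957421-33957720, plus strand): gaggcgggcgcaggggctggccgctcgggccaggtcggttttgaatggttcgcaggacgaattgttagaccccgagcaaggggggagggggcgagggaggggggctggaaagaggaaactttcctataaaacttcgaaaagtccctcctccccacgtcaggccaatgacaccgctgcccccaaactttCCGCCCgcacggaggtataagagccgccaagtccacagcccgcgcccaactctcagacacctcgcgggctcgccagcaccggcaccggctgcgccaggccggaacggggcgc
Twist2 (GRCm38, chr1:91801211-91801510, plus strand): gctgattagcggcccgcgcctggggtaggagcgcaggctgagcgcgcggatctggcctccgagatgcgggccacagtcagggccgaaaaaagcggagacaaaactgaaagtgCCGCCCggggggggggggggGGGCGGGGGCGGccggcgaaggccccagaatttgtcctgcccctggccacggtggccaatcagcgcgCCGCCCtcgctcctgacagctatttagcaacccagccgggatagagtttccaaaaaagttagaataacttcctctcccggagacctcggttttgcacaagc

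The Twist windows are shown for the same reason as the Msx pair. Twist1 held 1 GC box, at base -62, and the letters TATAAA on the gene's strand at base -126, which 8.32% of windows hold. Twist2 held 4 GC boxes between bases -138 and -51 and no TATAAA. Neither held a Runx motif, an E-box or a homeobox motif of those searched.

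**Figure D2:**
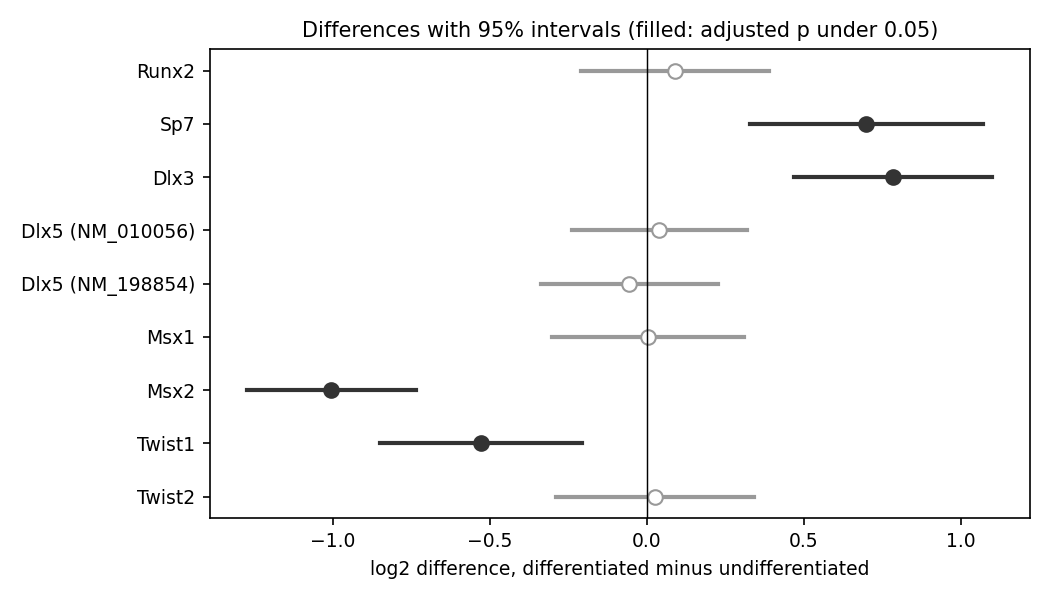
Log2 difference, differentiated minus undifferentiated, for each of the 9 features (points) with its 95% interval from limma (lines). Filled points have an adjusted p under 0.05. Sp7 (0.70) and Dlx3 (0.79) lie above 0 and Msx2 (-1.00) and Twist1 (-0.53) below, while the intervals of the other 5 features hold 0.

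**Figure D3:**
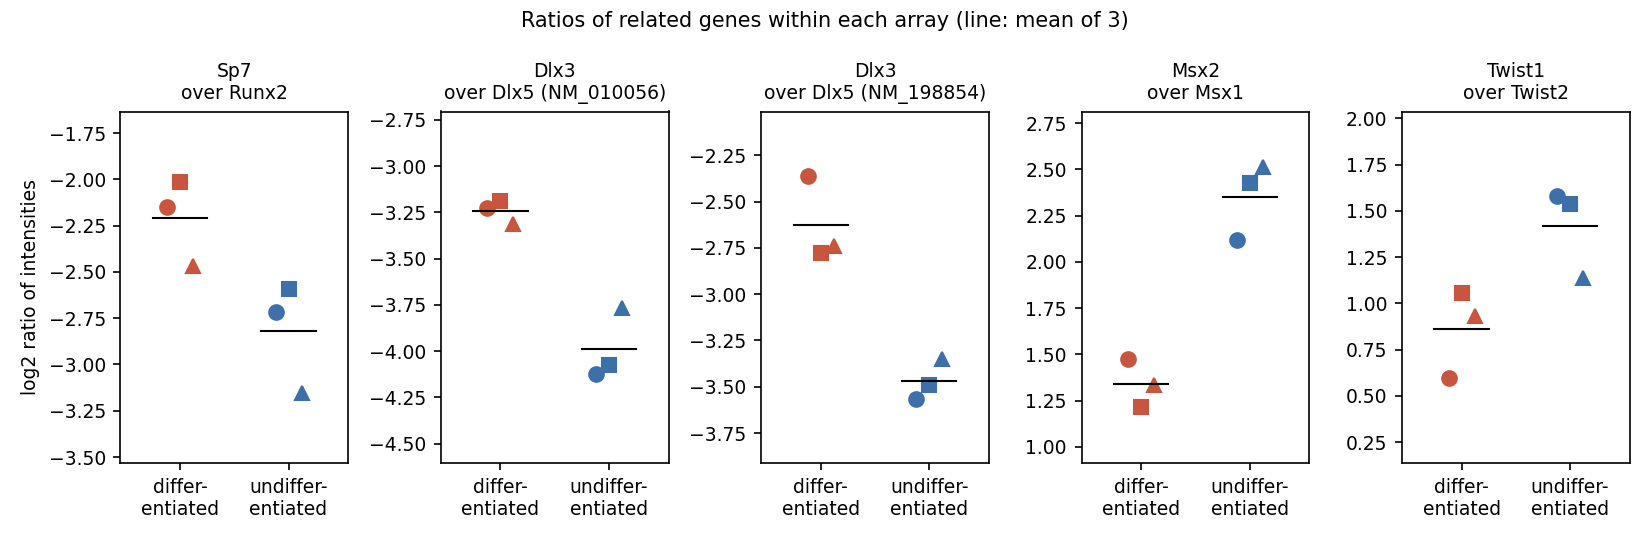
Log2 ratio of intensities of 2 related genes within each array (vertical axis, each panel spanning the same number of log2 units) for the 3 differentiated arrays (red, left) and the 3 undifferentiated arrays (blue, right). Circles, squares and triangles are replicates 1, 2 and 3 and lines are means of 3. On this deposited scale the groups do not overlap in any of the 5 panels, while after quantile normalization or cyclic loess they overlapped for Sp7 over Runx2.

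By Pearson's r of log2 values over the 6 arrays, the named genes most like each changed factor were as follows, out of 16904 searched. The likeness to a gene that separates the groups is largely that separation, and no test was made. Sp7 was nearest to Serpinb6b (r = 0.994), Decr2 (0.99) and Gorasp1 (0.99), all of which were also brightest on differentiated replicate 2. Dlx3 was nearest to Stmnd1 (0.999), Hsd11b1 (0.998), which encodes the enzyme that regenerates active glucocorticoid, and Dpep1 (0.998). Msx2 was nearest to Cavin2 (0.998), a caveolar coat protein gene, Cdh2 (0.998), the N-cadherin gene, and Atp10a (0.996). Cdh2 had an intensity of 669, 617 and 593 in differentiated replicates 1, 2 and 3, against 1153, 1106 and 1185 in undifferentiated replicates 1, 2 and 3 (log2 difference -0.88, adjusted p = 0.000996). Twist1 was nearest to Lmnb1 (0.997), the lamin B1 gene, Map4k4 (0.996) and Nek3 (0.994).

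Partners and relatives of these factors were described with 1 feature a gene, where 19.3% of 17298 named genes were called, 8.47% higher and 10.8% lower, with a median log2 difference of 0.081. Cbfb, the shared partner that stabilizes runt proteins on DNA, had an intensity of 1755, 2355 and 2041 in differentiated replicates 1, 2 and 3, against 3070.2, 2855 and 3502 in undifferentiated replicates 1, 2 and 3. All differentiated arrays were below all undifferentiated arrays, a 1.54-fold fall (adjusted p = 0.0173). Its call was lost when differentiated replicate 1 (adjusted p = 0.086) or 3 (adjusted p = 0.0678) was left out. The paralogues Runx1 and Runx3 had differences of -0.33 (adjusted p = 0.0969) and 0.077 (adjusted p = 0.815). Of these 3 genes 2 fell when undifferentiated replicate 3 was left out. Of the other Dlx and Msx genes, Dlx1, Dlx2, Dlx4 and Msx3, none of 4 passed, and Msx3 was not above the random-probe control on any array.

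Of 14 Sp and Klf zinc finger genes, 1 rose and 5 fell, with a median of -0.24. Sp3, a ubiquitous GC-box factor, fell 2.53-fold, with an intensity of 587, 705 and 678 in differentiated replicates 1, 2 and 3, against 1722, 2133 and 1233 in undifferentiated replicates 1, 2 and 3 (adjusted p = 0.00107). Sp1, its relative, fell 1.73-fold (adjusted p = 0.0035). Klf6 fell 1.68-fold (adjusted p = 0.00322), while Klf5 rose 1.66-fold (adjusted p = 0.00457). Sp1 and Sp3 thus moved in the opposite direction to Sp7 on the same arrays. None of the other Sp genes passed, with log2 differences of 0.017 (Sp2), -0.39 (Sp4), 0.45 (Sp5), 0.28 (Sp6), -0.45 (Sp8) and 0.47 (Sp9). With undifferentiated replicate 3 left out, 4 of this list rose and 5 fell, and over all 17 settings 1 to 4 rose and 3 to 7 fell. With that array left out, 43.2% of all named genes were called, 23.6% higher and 19.6% lower.

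Of 10 bHLH partners and Id genes, 1 rose and 2 fell, with a median of -0.16. Hand1 was not above the random-probe control on any array. The E proteins that pair with Twist, encoded by Tcf3, Tcf4 and Tcf12, did not pass, with differences of -0.19, -0.39 and -0.22. Id4, an inhibitor of bHLH pairing, fell 1.65-fold (adjusted p = 0.00351). Id2, another inhibitor of the class, fell 1.43-fold (adjusted p = 0.0403), and Scx, the tendon factor scleraxis, rose 1.50-fold (adjusted p = 0.0359). Id2 passed in 9 and Scx in 11 of 17 alternative settings, with adjusted p up to 0.352 and 0.327. Of this list 2 rose and 4 fell without undifferentiated replicate 3, and over all 17 settings 0 to 2 rose and 1 to 4 fell.

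Of 23 co-activators and co-repressors of Runx2, none rose and 5 fell, with a median of -0.11. Yap1, a Hippo pathway co-factor, had an intensity of 4789, 6040.3 and 4997 in differentiated replicates 1, 2 and 3, against 9639.6, 10013 and 10118 in undifferentiated replicates 1, 2 and 3, a 1.89-fold fall (adjusted p = 0.00125). The acetyltransferase gene Ep300 fell 1.64-fold (adjusted p = 0.00915), the Groucho family repressor gene Tle1 fell 1.53-fold (adjusted p = 0.0233) and Wwtr1, the Yap1 relative known as TAZ, fell 1.47-fold (adjusted p = 0.0309). The fifth was Tle4 (adjusted p = 0.0449). Yap1 passed in all 17 alternative settings, Ep300 in 14 (adjusted p up to 0.0542), Tle1 in 13 (up to 0.16) and Wwtr1 in 10 (up to 0.125). The 5 genes include both activators and repressors. With the array-number term in the fit 1 member rose and 1 fell. Without undifferentiated replicate 3, 2 rose and 8 fell, and over all 17 settings 0 to 2 rose and 1 to 8 fell. Of 5 measured enzymes known to act on Runx2 protein none passed, and over all 17 settings 0 to 1 rose and 0 to 1 fell.

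Of 19 genes of the BMP pathway, which induces Dlx, Msx and Id genes, 4 rose and 2 fell, with a median of -0.00053. Bmp4 had an intensity of 13443, 11556 and 10498 in differentiated replicates 1, 2 and 3, against 4647, 4510.2 and 3619 in undifferentiated replicates 1, 2 and 3, a 2.78-fold rise (adjusted p = 0.000129). The ligand gene Bmp2 rose 1.50-fold (adjusted p = 0.0297). Genes of secreted BMP antagonists were among those that rose, Grem1 by 1.86-fold (adjusted p = 0.014) and Chrd by 1.56-fold (adjusted p = 0.0139). Nog, the gene of the antagonist noggin, did not pass (log2 0.29, adjusted p = 0.15). The receptor gene Bmpr1a fell 1.60-fold (adjusted p = 0.0161). Of the BMP-responsive Id genes in the list, Id2 was the other gene that fell (log2 -0.51, adjusted p = 0.0403), and Id1 and Id3 did not pass, at -0.14 and -0.0059. Grem1, Chrd and Bmpr1a each passed in 14 of 17 alternative settings, with adjusted p up to 0.0802, 0.0703 and 0.0817. Bmp4 passed in all 17. Without undifferentiated replicate 3, 7 rose and 3 fell, and over all 17 settings 1 to 8 rose and 0 to 4 fell.

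Of 38 other skeletal lineage factors, 4 rose and 9 fell, with a median of -0.11. Ets1 fell 2.53-fold (adjusted p = 0.000575). The forkhead genes Foxc1 and Foxc2 act in calvarial development. Foxc1 fell 2.29-fold (adjusted p = 0.000279) and Foxc2 by 2.25-fold (adjusted p = 0.00192). The immediate early gene Egr1 rose 2.22-fold (adjusted p = 0.000322). Meox2 was not above the random-probe control on any array. Without undifferentiated replicate 3, 8 rose and 10 fell, and over all 17 settings 2 to 9 rose and 5 to 11 fell.

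Of 26 genes known in mouse or rat as targets of Runx2 or Sp7, 11 rose, 1 fell and 14 did not pass, with a median of 0.40. The list holds genes that had been seen to rise on these arrays when it was drawn up, so its direction is not independent evidence. Alpl, tissue-nonspecific alkaline phosphatase, had an intensity of 8023, 7476 and 8064 in differentiated replicates 1, 2 and 3, against 664, 544 and 615 in undifferentiated replicates 1, 2 and 3 (adjusted p = 1.16e-07). Dmp1, an acidic matrix phosphoprotein, had 3297, 2964 and 3132 in differentiated replicates 1, 2 and 3, against 963, 767 and 415 in undifferentiated replicates 1, 2 and 3 (adjusted p = 0.000279). The type I collagen genes Col1a1 and Col1a2 differed by 0.071 and 0.026 without passing. The gene that fell was Vdr, which encodes the vitamin D receptor. Vdr fell 3.31-fold (adjusted p = 0.000866) and passed in all 17 alternative settings. Over the 17 alternative settings 9 to 17 targets rose and 1 to 2 fell.

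**Figure D4:**
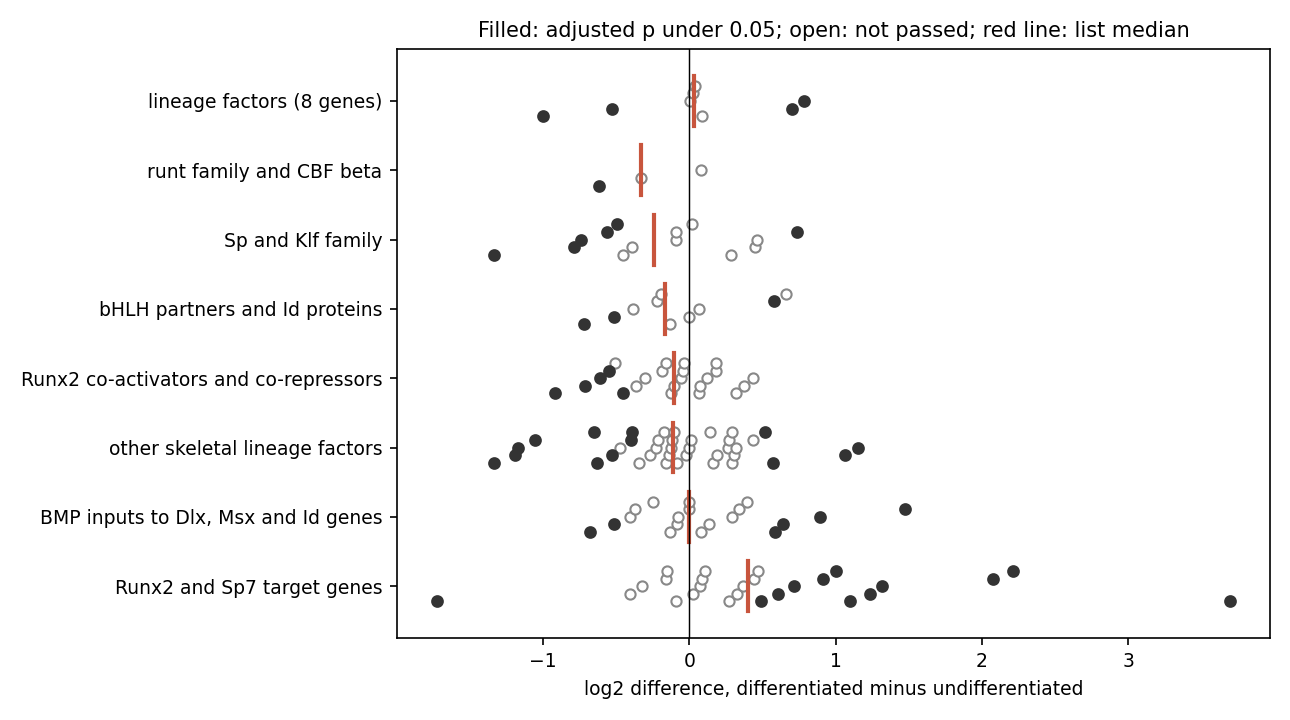
Log2 difference, differentiated minus undifferentiated, of each measured gene (points, spread vertically only to separate them) in the lineage factors and in 7 lists of partners, relatives, inputs and targets. Filled points have an adjusted p under 0.05 and red lines are list medians, from -0.33 for the runt family and CBF beta to 0.40 for Runx2 and Sp7 targets, with the 8 lineage factor genes at 0.033.

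Markers of the labelled cell type and of others were read on the same arrays. Of 9 osteoblast markers 3 rose and none fell, with Col1a1, Col1a2 and Sparc bright in both groups, Ibsp near the random probes and Phex not above them on any array. Over all 17 settings 3 to 4 osteoblast markers rose and 0 to 1 fell. Of 8 adipocyte markers 3 rose and none fell, with a log2 of the summed intensity of 13.20 to 13.28 in differentiated cells and 12.32 to 12.49 in undifferentiated cells. Cebpa, an adipogenic factor also present in osteoblasts, rose 2.68-fold (adjusted p = 8.45e-05). It made up 60.7 to 64.4% of the sum in differentiated cells and 39.2 to 46% in undifferentiated cells. Pparg, another adipogenic factor, rose 1.65-fold (adjusted p = 0.0359) and Cfd rose 1.37-fold (adjusted p = 0.0376). Pparg passed in 9 and Cfd in 8 of 17 alternative settings, and the median of the list was 0.48. Adipoq did not pass at 126 to 157 in differentiated cells and 116 to 142 in undifferentiated cells, and neither did Fabp4 (log2 -0.54, adjusted p = 0.0586). A single adipocyte marker passed when any differentiated array or undifferentiated replicate 1 was left out, and over all 17 settings 1 to 5 rose and 0 to 1 fell.

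Of 9 chondrocyte markers 3 rose and 2 fell, with sums of 12.98 to 13.19 in differentiated cells and 13.21 to 13.46 in undifferentiated cells. Sox9, the brightest of them, fell 1.45-fold (adjusted p = 0.0284; passed in 10 of 17 alternative settings). Among the 3 that rose, Sox6 was above the random-probe control only on differentiated replicate 2. The others were Acan (log2 0.63, adjusted p = 0.0344) and Comp (log2 0.42, adjusted p = 0.0484), both without overlap between groups. Acan passed in 10 and Comp in 5 of 17 alternative settings. No chondrocyte marker passed when any differentiated array or undifferentiated replicate 1 or 2 was left out, and over all 17 settings 0 to 5 rose and 0 to 2 fell. Of 8 myoblast markers only Pax3 passed, as a fall, while the other 7 differed by 0.12 to 0.53 and the median of the list was 0.32. The myoblast sums were 12.03 to 12.07 in differentiated cells and 12.37 to 12.40 in undifferentiated cells, of which Pax3 made up 36.9 to 38.9% in differentiated cells and 53.8 to 66% in undifferentiated cells. Over all 17 settings 0 to 5 myoblast markers rose and 1 fell.

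Of 7 macrophage and osteoclast markers only Ctsk passed, as a rise, with an intensity of 34547 to 39260 in differentiated cells and 13347 to 17121 in undifferentiated cells. The sums of 15.16 to 15.33 in differentiated cells and 13.90 to 14.20 in undifferentiated cells are mostly this gene, at 94.3 to 95.2% in differentiated cells and 87.3 to 91.4% in undifferentiated cells. The other 6 markers read 89.4 to 909 in differentiated cells and 86.8 to 755 in undifferentiated cells. Of 6 endothelial markers only Tek passed, as a rise, with sums of 11.04 to 11.18 in differentiated cells and 10.67 to 10.84 in undifferentiated cells. In each of these lists 1 to 3 markers rose and none fell over all 17 settings. With undifferentiated replicate 3 left out, 5 adipocyte, 5 myoblast, 3 macrophage and osteoclast and 3 endothelial markers rose and 1 adipocyte and 1 myoblast marker fell, where 23.6% of all named genes rose and 19.6% fell.

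Hapln1, a chondrocyte marker, Calcr, an osteoclast marker, and Cdh5, an endothelial marker, were not above the random-probe control, at 105 to 112 in differentiated cells and 96.3 to 109 in undifferentiated cells, on any array. Sox6 read 99.1 to 117 in differentiated cells and 75.4 to 83.5 in undifferentiated cells, above the control only on differentiated replicate 2. Col2a1, of chondrocytes, was below the control on differentiated replicate 3 and undifferentiated replicate 2, and Tie1, of endothelium, on differentiated replicate 2. The remaining markers of these types were above it on all 6 arrays. Acan, of chondrocytes, read 876 to 1002 in differentiated cells and 492 to 804 in undifferentiated cells. The leukocyte gene Ptprc read 402 to 444 in differentiated cells and 373 to 446 in undifferentiated cells, and Csf1r, of macrophages, read 234 to 266 in differentiated cells and 208 to 232 in undifferentiated cells. The endothelial genes Pecam1 and Vwf read 728 to 823 and 576 to 646 in differentiated cells and 498 to 654 and 453 to 494 in undifferentiated cells. The part of these cell types in the results was not tested.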

How the data were processed

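Total RNA of 6 cultures was hybridized to single-colour (Cy3) arrays, 1 per culture, and groups were taken from the sample titles. The deposited values are intensity on a linear scale. Per the submitters' processing notes the authors used RMA, which corrects background, normalizes between arrays and summarizes probes; which version, and on which arrays together, is not given in the sources used here. Each of the 42586 features had mostly 9 probes, and a control of 6131 random probes served as background and entered no test. The deposited series table held the same values (largest difference 0) and 0 columns of other series.

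Log2 of the intensity was fitted with limma 3.58.1 (lmFit, eBayes) under R 4.3.3; tests are 2-sided and p-values adjusted by Benjamini-Hochberg across all features. Features were named through unversioned RefSeq transcripts (GRCm38.p6 table, names only), which gave 17849 features a single symbol and 17298 genes; 24737 features had none and could hold further transcripts of these genes. In the lists the feature with the highest mean was used for a gene, and a gene not above the random-probe control on any of the 6 arrays is named as such. Named genes are all 9 factors, up to 4 called genes of each list by size, the 3 most like each called factor, and markers; other genes named to complete or illustrate a list were chosen after their values were seen. The factors and lists were chosen with earlier results of these data known. The fit was tested on simulated data. With 3 arrays a group, p-values measure only the spread between these arrays. In limma, eBayes draws the variance of each feature toward a value shared by all features. Replicate numbers were not used to pair the samples in the main fit. Alternatives were 3 rescalings, a dim-feature filter, a replicate block, the array number start, array weights, a variance trend, 1 feature a gene, a pseudocount of 50, the series table and each array left out. The series table setting repeats the main fit, so passing in it adds nothing to the counts of settings passed.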

Additional observations from a re-analysis of the deposited data

How the results depend on the processing

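Of the 9 features, Dlx3 and Msx2 passed and Runx2, both Dlx5 features, Msx1 and Twist2 did not pass in every alternative setting run. Sp7 and Twist1 lost their calls as given with their values above; leaving out 1 array at a time gave log2 differences of 0.55 to 0.81 for Sp7 and -0.61 to -0.42 for Twist1. With the start of the array number in the fit Twist1 was at -0.37, the number of lower genes was 1 and the median over the features was -0.029. The median was -0.024 with equal array medians, and -0.040 to 0.042 leaving out 1 array at a time. Leaving out 1 array gave 2 to 4 called genes, 1 to 2 of them higher and 1 to 2 lower. The number of all features called was 8365, of which 3396 were higher and 4969 lower. It was 21748 with array weights (11954 higher, 9794 lower) and 3367 with 1 feature a gene (1485 higher, 1882 lower), where fewer features were tested. Leaving out 1 array gave 3371 to 18691 called features, 1039 to 9871 higher and 2332 to 8820 lower. The cause of these shifts was not tested. With the replicate block 8800 features and the same 4 genes were called (adjusted p = 0.00701 for Sp7 and 0.0434 for Twist1). Deviations of same-numbered arrays correlated at 0.0102, 0.211 and 0.0585, and those of differently numbered arrays at -0.167 to 0.0846. With 3 arrays a group, these values cannot tell whether same-numbered cultures shared more than a number. No log2 ratio of related genes changed sign, and the values that moved most are given with the ratios. Settings for the other lists and their genes were chosen after seeing the data.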
